A study of Mus musculus with 18 samples.

Results

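Car6-/- stomach was compared with wild-type stomach on 6 Illumina bead arrays, 3 of each genotype, out of the 18 arrays of a study that also measured the duodenum and the submandibular gland. The 6 arrays were chosen by their tissue and genotype labels alone. The Car6-/- group held stomachs of knockout mice, and the wild-type group held stomachs of mice with intact Car6. All mice were C57BL/6 females aged 2 months, and the labels give neither the targeting strategy nor the littermate status of the controls. The design describes 3 mice of each genotype, so the replicates of a genotype are taken as separate animals. The arrays are called Car6-/- 1 to 3 and wild type 1 to 3 here, after the replicate numbers in the labels. A probe was called detected on an array when its deposited detection p was under 0.01. After probes detected on fewer than 3 of the 6 arrays were set aside, 8555 genes or unnamed probes were tested, of which 7947 had a gene symbol.

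Car6 encodes carbonic anhydrase VI, the secreted member of the enzyme family that converts carbon dioxide and water to bicarbonate and a proton. It is made by the serous cells of salivary glands and reaches the stomach with swallowed saliva. In the gastric glands, parietal cells secrete acid with the proton pump Atp4a/Atp4b, chief cells secrete pepsinogen, and surface and neck mucous cells cover the lining with mucins, trefoil peptides and gastrokines. The mouse stomach also has a forestomach lined by squamous epithelium, and it lies against the pancreas and the oesophagus.

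The probe for Car6 was undetected on all 6 stomach arrays. Its signal was 55.6, 57.4 and 62.3 in Car6-/- stomach, against 64.3, 64.6 and 60.5 in wild-type stomach. The ranges of the genotypes overlapped, so the stomach arrays could not check the genotype labels. In the submandibular gland the same probe gave 63.6, 55.1 and 51.0 in Car6-/- mice and 114, 106.5 and 158 in wild-type mice, with detection on the 3 wild-type arrays only. It was undetected on every duodenal array.

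Between 10214 and 11441 probes were detected on each stomach array. The correlation between arrays over the tested genes was 0.931 to 0.980 within a genotype and 0.934 to 0.985 between genotypes, so arrays of a genotype were not closer to each other than to the other genotype. The closest pair was Car6-/- 3 and wild type 2. The signal exceeded by 1% of probes was 90.2 times the median on Car6-/- 3 and 104 times the median on wild type 3, and on the other 4 arrays it lay between 65.3 and 74.1 times. The first principal component held 44.9% of the variance and set wild type 3 apart from the other arrays.

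The widest differences among the 6 stomachs lay in genes of the skeletal muscle, pancreatic acinar and submandibular gland lists, and squamous genes also varied widely. Of the 100 genes with the largest SD, 14 belonged to the squamous list, 14 to muscle, 8 to acinar and 6 to submandibular gland. Of the 10 genes with the largest SD over the 6 arrays, 5 belonged to the skeletal muscle list, 2 to the pancreatic acinar list and 1 to the submandibular gland list. The other two, Myl3 and Csrp3, encode proteins of striated muscle and varied with the muscle list. Acta1, the skeletal muscle actin, had normalized log2 values of 12.39, 10.26 and 4.49 on Car6-/- 1 to 3 and of 4.59, 4.65 and 12.31 on wild type 1 to 3. It was detected on 2 Car6-/- arrays and on 1 wild-type array. The mean over the 17 tested muscle genes was 9.70, 8.10 and 5.40 in Car6-/- stomach and 5.24, 5.39 and 9.64 in wild-type stomach. Muscle RNA was thus high on Car6-/- 1, Car6-/- 2 and wild type 3, and the genotypes overlapped.

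Squamous epithelium followed another pattern. Over the 34 tested squamous genes the mean log2 value was 9.75, 10.29 and 7.64 in Car6-/- stomach and 9.68, 7.88 and 10.09 in wild-type stomach. Car6-/- 3 and wild type 2 were low, and the other 4 arrays were high. Krt13, a keratin of stratified mucosal epithelium, had log2 values of 13.03, 13.72 and 9.97 in Car6-/- stomach and of 13.28, 10.29 and 13.00 in wild-type stomach. Krt4, its type II partner, had 9.48, 10.21 and 6.79 in Car6-/- stomach and 10.06, 7.07 and 9.91 in wild-type stomach. Trp63, the transcription factor of squamous stem cells, was likewise lowest on Car6-/- 3 at 6.00 and on wild type 2 at 6.34. In each genotype 1 stomach thus carried less squamous RNA than the others, and the list's median log2 difference was -0.00.

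Pancreatic acinar RNA was high on wild type 3. The mean over the 17 tested acinar genes was 9.59, 9.53 and 10 in Car6-/- stomach, against 9.98, 9.85 and 12.66 in wild-type stomach. Cela2a, a pancreatic elastase, had log2 values of 6.70, 7.01 and 7.11 in Car6-/- stomach and of 7.89, 7.66 and 14.77 in wild-type stomach. A further 10 acinar genes on the array were detected on fewer than 3 stomach arrays and were not tested. Of these, 9 were detected on wild type 3 alone, among them the trypsin gene Prss2, the chymotrypsin gene Ctrb1 and the carboxypeptidase gene Cpa1. Clps and Pla2g1b, also on the acinar list, had log2 values between 14.83 and 15.09 on every array, near the top of the scale.

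A list of submandibular gland genes was added after the values had been seen, so its direction is only a description. All 8 tested members had a lower mean in Car6-/- stomach, 2 of them without overlap (5.84% of all tested genes), and none was called. Their median log2 difference was -2.20, against -0.02 over all genes, and it was -0.30 without the filter on dim probes. The mean over its 8 tested members was 6.71, 6.89 and 6.77 in Car6-/- stomach, against 9.88, 7.81 and 8.46 in wild-type stomach. Scgb2b26, a secretoglobin, had log2 values of 6.39, 5.59 and 4.87 in Car6-/- stomach and of 12.15, 8.56 and 8.49 in wild-type stomach. The genotypes did not overlap, wild type 1 was the highest array, and the probe was detected on 1 of the 3 Car6-/- arrays. Its signals were 17100 to 23450 in the wild-type submandibular gland, against 387 to 3861 in the wild-type stomach. The list's kallikreins Klk1, Klk1b5 and Klk1b27 also had high signals in the duodenum, given below, and Klk1 is on the acinar list too. Of the other 21 list members on the array, 14 were undetected on every stomach array. In bulk tissue, fewer cells of a type and less RNA of each cell cannot be told apart.

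**Figure D1:**
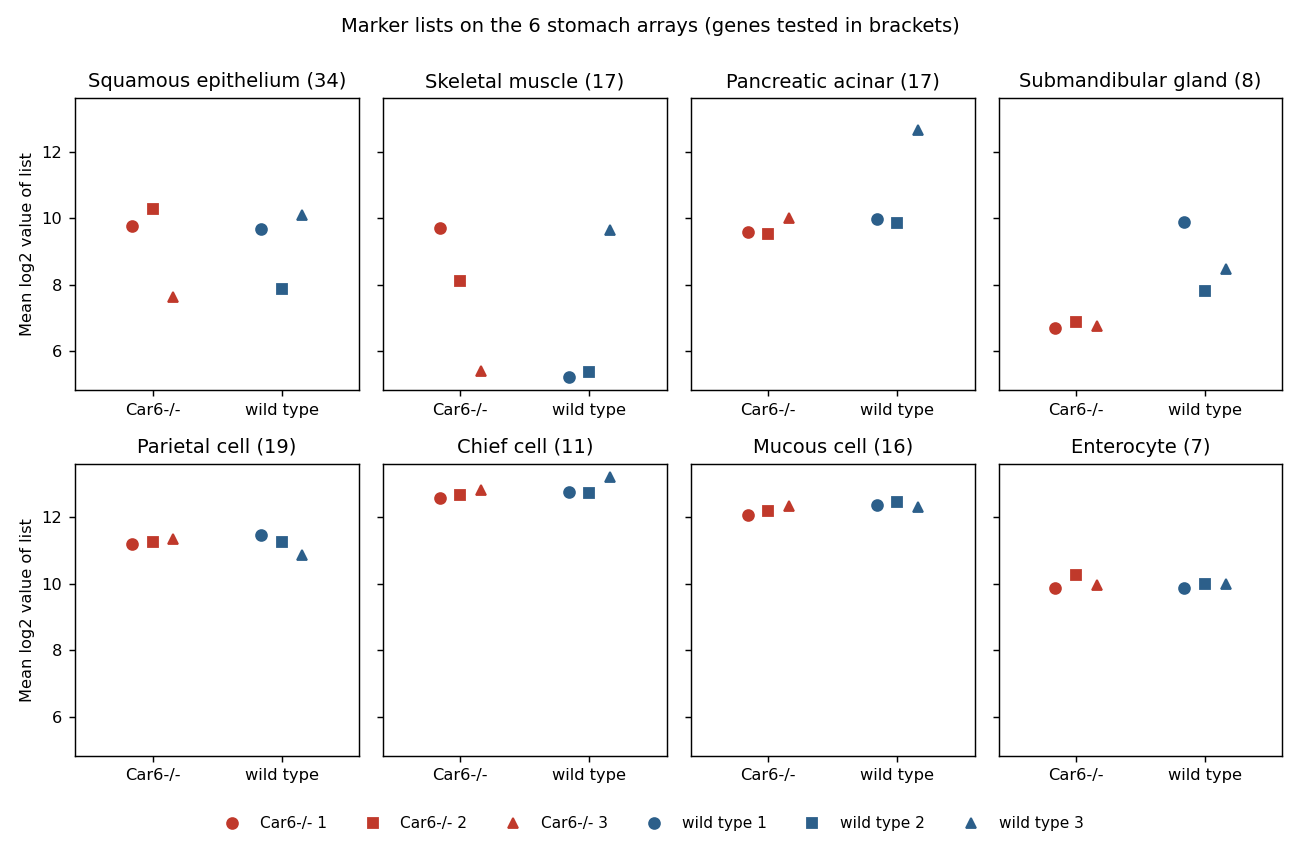
Each panel plots, on the y axis, the mean normalized log2 value of 1 marker list on the 6 stomach arrays, with Car6-/- arrays on the left and wild-type arrays on the right, and the number of genes tested in brackets. The squamous list was low on Car6-/- 3 (7.64) and wild type 2 (7.88), muscle was high on Car6-/- 1 (9.70), Car6-/- 2 (8.10) and wild type 3 (9.64), and acinar genes were high on wild type 3 (12.66). The parietal, chief, mucous and enterocyte lists stayed within a range of 0.65 over the 6 arrays.

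No gene passed the test between Car6-/- and wild-type stomach. With limma's moderated test and Benjamini-Hochberg adjustment over all 8555 genes or probes, 0 were called at an adjusted p of 0.05 (0%), and the smallest adjusted p was 0.9999. At an unadjusted p of 0.05, 248 (2.9%) passed, 103 of them higher (1.2%) and 145 lower (1.69%) in Car6-/- stomach. A fit of all 18 arrays with a shared spread called 1, the unnamed probe ILMN_2958159. Groups did not overlap for 771 genes or probes (9.01%), 271 of them higher (3.17%) and 500 lower (5.84%). The median log2 difference over all genes was -0.02, the median standard error (SE) was 0.21, and the 95% interval lay within 1 log2 unit of 0 for 7195 genes (84.1%). The other genes had wider intervals or estimates further from 0, and 37 estimates exceeded 1 log2 unit in size. Of these 37, 12 were higher and 25 lower in Car6-/- stomach, and 18 were detected on all 6 arrays. Muscle genes made up 8 of the 12, and genes of the acinar or submandibular list made up 14 of the 25. Leaving out wild type 3 raised the number at an unadjusted p of 0.05 to 466, and leaving out Car6-/- 3 raised it to 401, with 0 called in both fits. Without Car6-/- 2 it was 100.

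**Figure D2:**
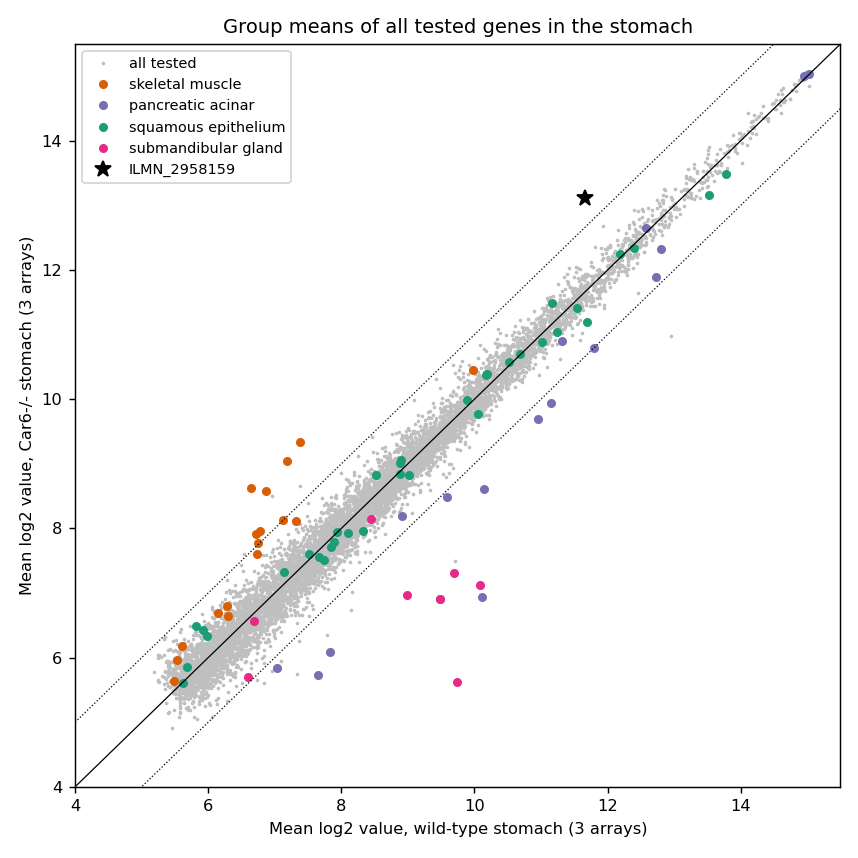
Each point is 1 tested gene, with its mean log2 value over 3 wild-type arrays on the x axis and over 3 Car6-/- arrays on the y axis. The solid line marks equal means and the dotted lines a difference of 1 log2 unit. Of the 12 genes or probes above the upper dotted line 8 belong to the muscle list, and of the 25 below the lower one 14 belong to the acinar or submandibular list, while ILMN_2958159 lies 1.46 above the solid line.

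The probe with the smallest p was ILMN_2958159, which the annotation used here does not name. Its signals were 7373, 8862 and 10182 in Car6-/- stomach, against 3686, 2880 and 3315 in wild-type stomach. Every Car6-/- array lay above every wild-type array, and the log2 difference was 1.46 (SE 0.23, unadjusted p = 0.000346). Without each array in turn its log2 difference was 1.25 to 1.68. Another unnamed probe, ILMN_1225712, had log2 values of 10.73, 10.53 and 10.32 in Car6-/- stomach and of 9.57, 9.84 and 9.61 in wild-type stomach. It too had no overlap, with a difference of 0.85 (SE 0.18), but it did not pass the test.

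The named genes with the smallest unadjusted p on the higher side were Rtn4, Gpr149, B3galt5, Tgoln1 and Pm20d2, and none passed the adjusted test. Rtn4 encodes a reticulon that shapes the tubular endoplasmic reticulum. Its log2 values were 6.86, 7.01 and 6.86 in Car6-/- stomach and 6.29, 6.22 and 6.27 in wild-type stomach, a difference of 0.65 (SE 0.15). Another Rtn4 probe gave signals of 109.1, 90.2 and 109.1 in Car6-/- stomach and of 109, 93.6 and 94.6 in wild-type stomach, so its genotypes overlapped. B3galt5 encodes a galactosyltransferase that extends sugar chains on mucins and glycolipids. Its log2 values were 6.34, 6.20 and 6.81 in Car6-/- stomach and 5.48, 5.81 and 5.47 in wild-type stomach, a difference of 0.86 (SE 0.21). Tgoln1, a protein of the trans-Golgi network, differed by 0.70 (SE 0.17), with no overlap. Gpr149, an orphan receptor, and Pm20d2, a dipeptidase-related protein, were undetected on all 3 wild-type arrays. Their signals in Car6-/- stomach were at least 1.19-fold and at least 1.20-fold higher than the wild-type bound. That bound is the higher of the probe's own value and the lowest detected value on each array.

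Among named genes detected on all 6 arrays, Tmem189, Kctd14, Cavin1 and Gsn had the largest differences on the higher side without overlap. Tmem189, an enzyme of ether lipid synthesis, differed by 1.06 (SE 0.39) on the log2 scale, and by 0.57 without wild type 3. Cavin1, a coat protein of caveolae, differed by 0.92 (SE 0.36), and by 0.60 without Car6-/- 2. Kctd14, whose highest probe gave signals of 796, 558 and 871 in Car6-/- stomach and 294, 370 and 599 in wild-type stomach, differed by 0.97 (SE 0.26). The deposited signals of that probe overlapped, but its normalized log2 values did not. Its other probes had means of 255 and 289 in Car6-/- stomach, against 177 and 221 in wild-type stomach. The probe with a mean of 289 had overlapping deposited signals, at 258 to 315 in Car6-/- stomach and 168 to 276 in wild-type stomach. Gsn, which encodes the actin-severing protein gelsolin, had signals of 561, 610 and 626 in Car6-/- stomach and of 512, 419 and 203 in wild-type stomach. Its log2 difference was 0.87 (SE 0.45), and it was 0.30 without wild type 3. Timmdc1, an assembly factor of mitochondrial complex I chosen after its values were seen, had a log2 difference of 1.28 (SE 0.51). Its log2 values were 8.68, 8.52 and 8.78 in Car6-/- stomach and 8.70, 6.80 and 6.65 in wild-type stomach, so wild type 1 lay among the Car6-/- arrays.

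On the lower side the 5 named genes with the smallest unadjusted p were Aox3, Rab6b, Osgin1, Iqce and Fbxo44, and none passed the adjusted test. Aox3 encodes an aldehyde oxidase. Its log2 values were 5.70, 5.49 and 5.65 in Car6-/- stomach and 6.36, 6.57 and 6.58 in wild-type stomach, a difference of -0.89 (SE 0.16). The probe was detected on 1 Car6-/- array and on all 3 wild-type arrays. Osgin1, a growth inhibitor induced by oxidative stress, had 6.69, 6.39 and 6.55 in Car6-/- stomach and 7.52, 7.33 and 7.14 in wild-type stomach, a difference of -0.79 (SE 0.17). Iqce, a protein of the primary cilium, differed by -0.67 (SE 0.15) and Fbxo44, a substrate receptor of a ubiquitin ligase, by -0.80 (SE 0.18), both with no overlap. Atp10d, a phospholipid flippase chosen after its values were seen, differed by -1.59 (SE 0.51). It had 5.71, 5.34 and 6.18 in Car6-/- stomach and 8.0, 7.93 and 6.09 in wild-type stomach, so wild type 3 lay among the Car6-/- arrays.

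Rab6b encodes a Golgi-associated Rab GTPase. Its signals were 97.9, 102 and 91.4 in Car6-/- stomach, where it was undetected on all 3 arrays, and 180, 168 and 137 in wild-type stomach, where it was detected on all 3. Its signal was at least 1.61-fold lower in Car6-/- stomach, with an adjusted p of 0.9999 by limma. Of the 35 tested Rab genes, 17 were higher and 18 lower, with a median of -0.01 against -0.02 over all genes. Its paralogue Rab6a had a log2 difference of 0.66 (SE 0.38).

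**Figure D3:**
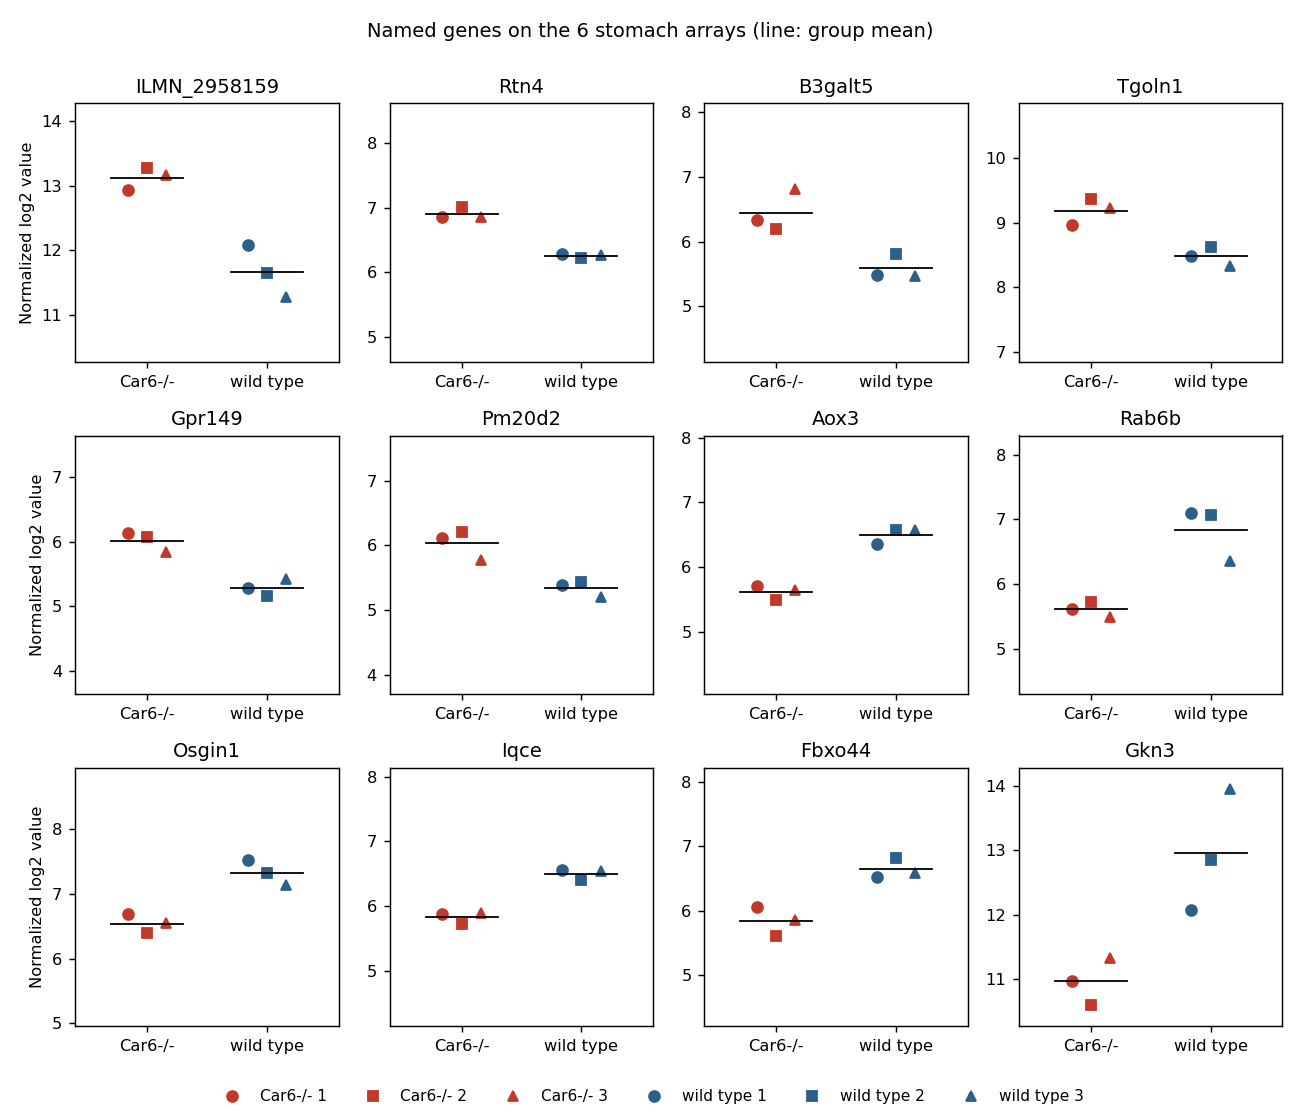
Points are the normalized log2 values (y axis) of 12 genes or probes on the 3 Car6-/- arrays (left) and the 3 wild-type arrays (right), and lines are group means. None of the 12 overlaps between the genotypes. Panels span at least 4 log2 units, and Gkn3 has the widest spread among wild-type arrays, from 12.07 to 13.95.

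Most tested defining genes of parietal, chief and endocrine cells had similar values in the genotypes. Those of mucous cells, with Gkn3 and Muc6 lower in Car6-/- stomach, are described below. Among 19 tested parietal genes, 11 were higher and 8 lower, with a median of 0.04, none called and no gene free of overlap. Atp4a, the catalytic subunit of the gastric proton pump, had log2 values of 14.81, 14.80 and 14.84 in Car6-/- stomach and of 14.80, 14.91 and 14.18 in wild-type stomach. Only wild type 3 was low. Atp4b, the pump's beta subunit, had 14.51, 14.55 and 14.41 in Car6-/- stomach and 14.55, 14.49 and 14.53 in wild-type stomach. Its 95% interval ran from -0.37 to 0.30, which leaves out a change of 1 log2 unit. Cblif, the intrinsic factor that binds vitamin B12, differed by 0.10 (SE 0.19). Values this near the top of the intensity range may understate differences.

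Among 11 tested chief cell genes, 4 were higher and 7 lower, with a median of -0.06 and none called. Cpb1, a carboxypeptidase gene also on the acinar list, had the largest estimate at -1.92. Its log2 values were 5.83, 5.58 and 5.77 in Car6-/- stomach and 5.68, 5.57 and 11.68 in wild-type stomach, so it was high on wild type 3 alone. Pgc, which encodes progastricsin, had log2 values of 14.57, 14.54 and 14.55 in Car6-/- stomach and of 14.52, 14.83 and 14.42 in wild-type stomach. Its interval ran from -0.43 to 0.35. Bhlha15, the transcription factor Mist1 of secretory cells, was spread from 9.75 to 10.79 in Car6-/- stomach and from 9.41 to 11.47 in wild-type stomach. Among 11 tested endocrine genes, 4 were higher and 7 lower, with a median of -0.11. Ghrl, which encodes ghrelin, differed by -0.09 (SE 0.18), and Sst, somatostatin, by -0.22 (SE 0.21). Gast, the gastrin gene of the antrum, was undetected on every stomach array.

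Of the mucous list's 16 tested members, 11 were higher and 5 lower, with a median of 0.08 and a mean of -0.17. None was called, and 3 had an unadjusted p under 0.05 (2.9% of all tested genes did). Gkn3, a gastrokine of neck mucous cells, had log2 values of 10.98, 10.61 and 11.34 in Car6-/- stomach and of 12.07, 12.85 and 13.95 in wild-type stomach. The genotypes did not overlap, wild type 3 was the highest array, and the difference was -1.98 (SE 0.45, unadjusted p = 0.00293). Without each array in turn it was -2.45 to -1.45. Aqp5, a water channel of gland cells, had 7.17, 6.83 and 7.05 in Car6-/- stomach and 7.71, 7.76 and 9.02 in wild-type stomach, a difference of -1.15 (SE 0.35). It was -0.72 without wild type 3, and another Aqp5 probe, with signals of 89.6, 115.6 and 124 in Car6-/- stomach and of 116, 138 and 259 in wild-type stomach, had overlap. Muc6, the mucin of neck and pyloric glands, had 7.43, 7.67 and 8.62 in Car6-/- stomach and 8.43, 8.81 and 8.70 in wild-type stomach. Its difference was -0.74 (SE 0.31), and Car6-/- 3 lay within the wild-type range.

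Genes of surface mucous cells had smaller estimates. Gkn1 differed by 0.21 (SE 0.23), Gkn2 by 0.16 (SE 0.16), the trefoil peptide gene Tff1 by 0.06 (SE 0.16) and the surface mucin gene Muc5ac by 0.32 (SE 0.37). Tff2, the trefoil peptide of neck cells, differed by -0.13 (SE 0.18), with 13.98, 13.94 and 14.39 in Car6-/- stomach and 14.14, 14.29 and 14.28 in wild-type stomach. Gkn3, Aqp5 and Muc6 gave signals in duodenal samples too, where Gkn3 ran from 11330 to 31090 in Car6-/- mice and from 30790 to 35160 in wild-type mice. Of the enterocyte genes not tested, 10 were undetected on every stomach array, Fabp1, Fabp2, Sis and Cdx2 among them. Cdx1, an intestinal transcription factor, Reg3b and Guca2b were detected on wild type 3 alone, and Mep1b on Car6-/- 3 alone. The mean over the 7 tested enterocyte genes was 9.88, 10.26 and 9.96 in Car6-/- stomach and 9.87, 9.99 and 10 in wild-type stomach. Wild type 3, with the highest Gkn3 and Aqp5, also had the highest acinar mean. With the acinar mean as a covariate, an alternative chosen after seeing the data, the differences were -1.36 for Gkn3 and -0.64 for Aqp5.

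**Figure D4:**
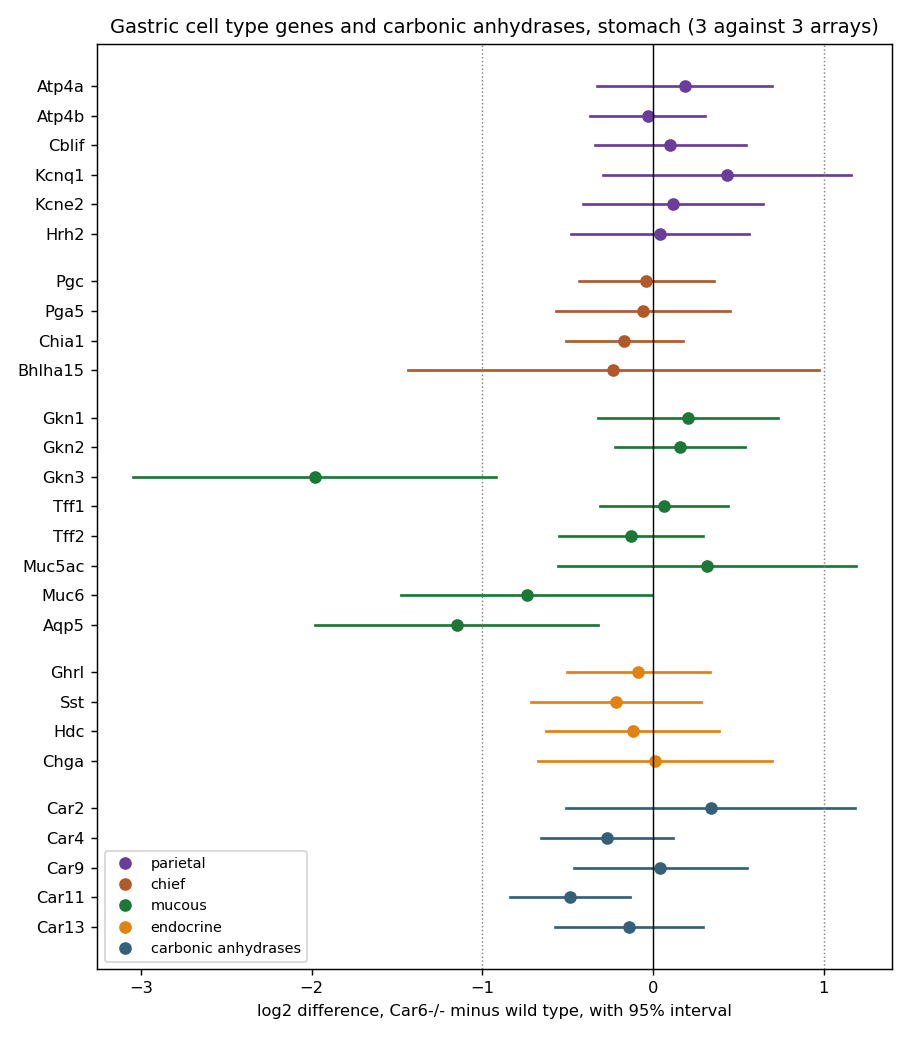
Points are log2 differences, Car6-/- minus wild type (x axis), of 27 genes of gastric cell types and carbonic anhydrases, with 95% intervals from the limma fit, and dotted lines mark 1 log2 unit on each side of 0. The intervals of Gkn3 (-3.04 to -0.92), Aqp5 (-1.98 to -0.32), Muc6 (-1.48 to -0.00) and Car11 (-0.84 to -0.13) lie below 0, and no gene passed the adjusted test.

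The other carbonic anhydrases were divided evenly. Of 10 tested, 5 were higher and 5 lower, with a median of -0.00 and none called. Car2, a cytosolic form in parietal and surface cells, had log2 values of 12.13, 12.33 and 12.61 in Car6-/- stomach and of 12.54, 12.35 and 11.17 in wild-type stomach. Car9, the membrane form of the basolateral gastric epithelium, differed by 0.04 (SE 0.22). Car11, a related protein without enzyme activity, had 6.10, 6.28 and 6.33 in Car6-/- stomach and 6.69, 6.70 and 6.77 in wild-type stomach, a difference of -0.49 (SE 0.15, unadjusted p = 0.0145). Car4, the membrane-anchored form, had no overlap either, with a difference of -0.27 (SE 0.16). Car3, a form abundant in fat and muscle, had 8.49, 5.88 and 10.05 in Car6-/- stomach and 8.57, 7.51 and 8.22 in wild-type stomach. Car3 is also on the adipocyte list of 11 tested genes, so that list's mean includes it. The mean was lowest on Car6-/- 2 and highest on Car6-/- 3, at 8.29, 7.41 and 8.93 in Car6-/- stomach. In wild-type stomach it was 8.22, 8.05 and 8.53. Car7 was undetected on every stomach array.

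Among 16 tested genes of bicarbonate, proton, chloride and water transport, 8 were higher and 8 lower, with a median of -0.03. Slc4a3, an anion exchanger, had log2 values of 6.38, 6.67 and 6.57 in Car6-/- stomach and of 7.01, 6.91 and 6.84 in wild-type stomach, a difference of -0.38 (SE 0.16). Aqp1, the water channel of capillary endothelium, differed by -0.49 (SE 0.23), with no overlap. Slc4a2, the exchanger that carries bicarbonate out of parietal cells, differed by -0.22 (SE 0.17) on the parietal list.

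The genes with the largest estimates on the lower side belong mostly to pancreas and salivary gland. Klk1b5, a glandular kallikrein, had signals of 178, 177 and 293 in Car6-/- stomach, against 1134, 295 and 2232 in wild-type stomach, a log2 difference of -2.39 (SE 0.64). The nearest arrays were wild type 2 and Car6-/- 3. Klk1, tissue kallikrein, had 139, 125 and 306 in Car6-/- stomach and 802, 245 and 2658 in wild-type stomach, a difference of -2.58 (SE 0.80) with overlap. Klk1b27 differed by -2.02 (SE 0.60). In wild-type duodenum Klk1b5 gave signals of 6939 to 18560, Klk1 of 6259 to 13250 and Klk1b27 of 5089 to 22670. Scgb2b26 gave 77.6 to 92.0 there. The kallikrein probes thus did not mark the submandibular gland alone.

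Try4 and Try5, trypsin genes, had log2 differences of -0.83 (SE 0.21) and -1.20 (SE 0.51), both with no overlap. For Try4 the log2 values were 11.65, 11.81 and 12.23 in Car6-/- stomach and 12.80, 12.48 and 12.89 in wild-type stomach, so wild type 1 and 2 also lay above every Car6-/- array. Try5 differed by -0.58 without wild type 3, and Cela2a by -0.83, against -3.17 with it. The acinar list had 3 members higher and 14 lower, with a median of -1.10, which was -0.31 without wild type 3. Kallikreins, trypsins, amylases and secretoglobins have close paralogues, so a probe's signal may include those of its neighbours. All 17 tested muscle genes had a higher mean in Car6-/- stomach, with a median of 0.87, but none was free of overlap. That median was -0.04 without Car6-/- 1 and 2.06 without wild type 3. Only 3 of the 17 were detected on all 6 arrays. The filter kept most of them through Car6-/- 1, Car6-/- 2 and wild type 3, so their shared direction was partly fixed by it. Without the filter on dim probes the list's median was 0.43.

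Immune and stress genes had medians near that of all genes (-0.02), and none of their members was called. Interferon genes had 9 of 17 higher and a median of 0.07, antigen presentation genes 7 of 17 higher and a median of -0.07, and macrophage genes 8 of 17 higher and a median of -0.04. Laptm5, a lysosomal protein of leukocytes, had log2 values of 10.41, 10.12 and 10.60 in Car6-/- stomach and of 10.92, 10.74 and 11.27 in wild-type stomach, a difference of -0.59 (SE 0.21). Of 23 T, B and plasma cell genes on the array, 2 were detected on enough arrays to be tested. Among 28 antioxidant genes, 15 were higher and 13 lower, with a median of 0.02. Slc7a11, the cystine transporter, differed by -0.59 (SE 0.25), in the same direction as Osgin1. Atf4, the transcription factor of the integrated stress response, had 9.09, 9.04 and 9.63 in Car6-/- stomach and 8.78, 8.39 and 8.65 in wild-type stomach, a difference of 0.65 (SE 0.22). Across its list of 19 secretory stress genes, 7 were higher and 12 lower.

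Metabolic and growth lists had no member called either. Among 25 xenobiotic metabolism genes, 14 were higher and 11 lower. Cyp2b10, a cytochrome P450 of drug metabolism, differed by 0.81 (SE 0.34), and Cyp2c65, a P450 of the gut, by 0.52 (SE 0.25). Respiratory chain genes had 21 of 34 higher and a median of 0.03. Ndufa5, a complex I subunit, had log2 values of 12.40, 12.26 and 12.40 in Car6-/- stomach and of 11.16, 12.19 and 12.07 in wild-type stomach. Cell cycle genes had 8 of 18 higher, with Hmgb2, a chromatin protein of dividing cells, at a difference of 0.42 (SE 0.16). Sugar chain synthesis had 9 of 17 higher. Gcnt1, the enzyme that branches mucin-type chains, had 5.92, 6.04 and 6.51 in Car6-/- stomach and 6.72, 6.68 and 6.84 in wild-type stomach, a difference of -0.59 (SE 0.20). Another kept Gcnt1 probe had overlap. A Gcnt1 probe undetected on every stomach array gave signals of 58.49, 56.58 and 54.99 in Car6-/- stomach and of 64.95, 65.29 and 67.67 in wild-type stomach. Matrix genes had 11 of 16 higher, with Col1a1, a collagen I chain, at 0.88 (SE 0.37). Circadian clock genes had 5 of 12 higher and a median of -0.19. Smooth muscle, regional transcription factor, cholesterol synthesis, adipocyte, hepatocyte, tuft cell, immediate early and iron lists had medians between -0.00 and 0.08. The smallest lists, with 3 islet, 2 red blood cell and 2 lymphocyte genes tested, had medians of -0.26, -0.14 and -0.46.

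Genes that neighbour Car6 on its chromosome were taken from the gene order of assembly GRCm38.p6, 20 tested genes on each side. Of these 40, 14 were higher and 26 lower in Car6-/- stomach, with a median of -0.12 and none called. At an unadjusted p of 0.05, 5 passed (2.9% of all tested genes did), and 6 were lower with no overlap (5.84% of all tested genes were). H6pd, the nearest tested gene and an enzyme of the endoplasmic reticulum, had log2 values of 8.52, 8.39 and 8.89 in Car6-/- stomach and of 9.56, 9.56 and 8.86 in wild-type stomach. Its difference was -0.73 (SE 0.25), and wild type 3 lay within the Car6-/- range. Klhl21, an adaptor of a ubiquitin ligase, had 9.29, 9.03 and 9.31 in Car6-/- stomach and 9.95, 9.47 and 9.93 in wild-type stomach, a difference of -0.57 (SE 0.19). Clstn1, a calsyntenin, differed by -0.49 (SE 0.18), and Fbxo44, described above, is also among the 40. Rbp7, a retinoid-binding protein, differed by 0.90 (SE 0.34) with overlap. Errfi1, on the other side of Car6, differed by -0.00 (SE 0.20).

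Of the genes and probes named for the stomach, 3 had the same direction with no overlap in all 3 tissues. Of the 6400 genes or probes tested in each tissue, 11 did (0.172%), 4 higher (0.0625%) and 7 lower (0.109%). The 3 were named for their separation in the stomach, so that part of the pattern was fixed by the choice. ILMN_2958159 had signals of 4393, 7453 and 8560 in Car6-/- duodenum, against 1052, 2254 and 2392 in wild-type duodenum. In the submandibular gland it had 2495, 2300 and 3826 in Car6-/- mice, against 1430, 787 and 1448 in wild-type mice. Its log2 difference was 1.46 in the stomach, 1.54 in the duodenum (adjusted p by limma 0.0715) and 1.23 in the submandibular gland (adjusted p by limma 0.0409). In the fit of all 18 arrays the stomach difference was 1.51 with an adjusted p of 0.0107.

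Rab6b had signals of 85.1, 94.6 and 110.2 in Car6-/- duodenum, against 134, 120 and 143 in wild-type duodenum. In the submandibular gland it had 64.1, 54.1 and 60.9 in Car6-/- mice and 113, 91.1 and 105 in wild-type mice. Its adjusted p by limma was 0.128 in the duodenum and 0.00432 in the submandibular gland. Fbxo44 had 79.2, 82.6 and 88.4 in Car6-/- duodenum and 102, 115 and 102 in wild-type duodenum, and it was undetected on the 3 Car6-/- arrays there. In the submandibular gland its log2 difference was -0.79. Neither of its adjusted p values passed, at 0.115 and 0.381. Tissues may have come from the same mice, so these comparisons are not independent of each other.

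**Figure D5:**
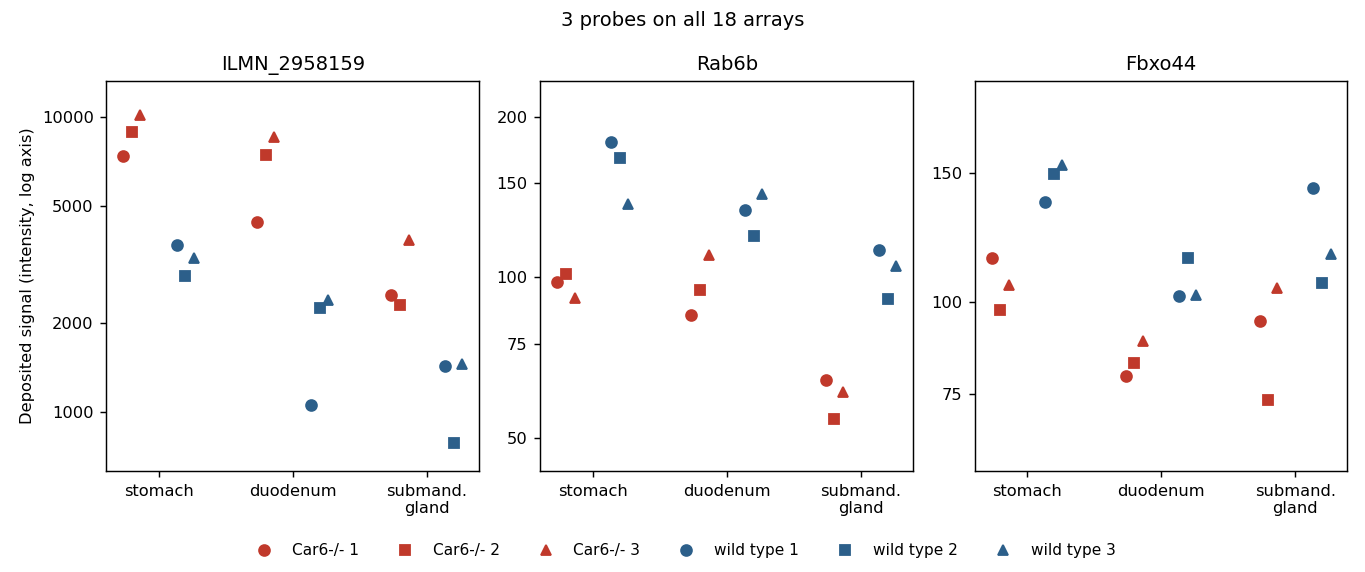
Points are the deposited signals of 3 probes on all 18 arrays, on a log y axis, with the Car6-/- arrays to the left of the wild-type arrays within each tissue on the x axis. ILMN_2958159 was higher and Rab6b and Fbxo44 were lower in Car6-/- samples of each tissue, with no overlap between genotypes. In the stomach the signals of ILMN_2958159 were 7373 to 10182 in Car6-/- mice and 2880 to 3686 in wild-type mice.

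Whether the stomach effect differed from that of another tissue was tested in the fit of all 18 arrays, over 9681 genes or probes. Against the duodenum, 2 differences were called (0.0207%), and 1240 had an unadjusted p under 0.05. These were Krt79, a type II keratin, and Mup6, a major urinary protein. Krt79 was undetected on all 3 Car6-/- duodenal arrays and at least 1.25-fold lower in Car6-/- than in wild-type duodenum, and its log2 difference in the stomach was 0.45. Mup6 was undetected on every stomach array and was detected on 1 Car6-/- and on all 3 wild-type duodenal arrays. Leaving out each stomach array in turn gave 1 to 3 called differences, with Krt79 called in every fit and Mup6 in none. The count was 1 without Car6-/- 1, 2 or 3 or wild type 2. The replicate number as a block gave 135. With quantile normalization without background correction, Mup6 was called and Krt79 was not. The fit treats the 18 arrays as independent, although tissues may share mice.

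Against the submandibular gland, 6 differences were called (0.062%), and 447 had an unadjusted p under 0.05. Car6 itself led (adjusted p by limma 3.23e-06), with a signal at least 1.56-fold lower in the Car6-/- gland, where it was undetected. Car6 is the gene knocked out and was undetected on every stomach array, so its lead was given by the design. Pgk1, a glycolytic enzyme, and Gcnt1 were undetected on all 3 wild-type gland arrays. Pgk1 gave signals of 222 to 264 in the Car6-/- gland and of 60.1 to 64.7 in the wild-type gland, at least 2.87-fold higher. Gcnt1 gave 224 to 396 in the Car6-/- gland and 67.1 to 77.4 in the wild-type gland, at least 3.76-fold higher. The probe for Pgk1, the only one on the array, was undetected on every stomach array, with signals of 87.6 to 92.3 in Car6-/- mice and 67.8 to 72.7 in wild-type mice. On the duodenal arrays it was undetected too, so no wild-type sample of the 3 tissues gave a detected signal. Whether the probe reports the usual Pgk1 transcript was not tested.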

How the data were processed

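Total RNA was amplified and biotin-labelled, per the labels' protocols, and hybridised to Illumina bead arrays. The authors deposited non-normalized signal intensity for 25697 probes on 18 arrays, each with a detection p-value, and a table of log2 values, which matched a quantile normalization within each tissue without background correction (lowest correlation 0.9997). The authors' tools are not given in the sources used here. From the intensities of the 6 stomach arrays, normalized log2 values were made with limma 3.58.1 (R 4.3.3), whose neqc function corrects the background and equalizes the quantiles (offset 16, negative controls inferred from detection p). Probes detected (p under 0.01) on at least 3 of the 6 arrays were kept, and a gene was represented by its kept probe with the highest mean. Probe IDs were named through the platform annotation and GRCm38.p6: 23978 probes had 1 symbol, 1719 had none and 0 had several.

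Genotypes were compared with lmFit and eBayes, with Benjamini-Hochberg adjustment at 0.05. Log2 differences are Car6-/- minus wild type. Differences between tissues were contrasts in 1 fit of 18 arrays normalized together. The script was tested on simulated data. Genes are named if they have the 5 smallest unadjusted p in a direction, the 5 largest differences without overlap and detected on all arrays, or the 10 largest SDs, or if they are among the 3 members of a list or interaction with the smallest p or a list's defining genes. Other genes (ILMN_1225712, Timmdc1, Atp10d, Rab6a, further list members, neighbours of Car6 and the further interaction genes) were named after their values were seen. The members, tests and 34 gene lists (719 of 809 names on the array) were chosen with earlier results of these data known, and the submandibular list and 3 alternatives after the values were seen. Alternatives covered background correction, normalization, the authors' log2 values, filters, weights, covariates, blocks and leaving out arrays. Same-numbered stomach arrays did not deviate together. Only 3 arrays a group limit the precision.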

Additional observations from a re-analysis of the deposited data

Results flagged for a closer look

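For 8 genes the fitted Car6-/- effect in the stomach differed from that in another tissue by limma's test of the difference itself. The test was adjusted over 9681 genes or probes in a fit that treats the arrays as independent. Several of these genes were undetected in 1 genotype of a tissue. Car6, Pgk1, Olfr979 and Mup6 were undetected on every stomach array, so no stomach effect was measured for them. For Car6, the gene knocked out, the gland difference was given by the design. For genes undetected in a genotype of a tissue, the difference rests on fitted values at background and is not a measured fold. The Brf1 difference rests on such values in part, since it was detected on 1 of the 3 wild-type gland arrays. The stomach effect minus the duodenal effect was 1.76 for Krt79 (adjusted p 0.00705) and 3.46 for Mup6 (adjusted p 0.0479), on the log2 scale. Leaving out each stomach array in turn gave 1 to 3 called genes, and 1 without Car6-/- 1, 2 or 3 or wild type 2. Krt79 was called in all 6 of those fits and Mup6 in none. With a replicate block both were among 135 called. With quantile normalization without background correction, Mup6 was called and Krt79 was not. Without the filter on dim probes, Krt79 was called and Mup6 was not. The Krt79 signal was 54.5 to 80.4 in Car6-/- duodenum, undetected on all 3 arrays, and 100.1 to 128 in wild-type duodenum. In the stomach it was 176 to 237 in Car6-/- mice and 147 to 193 in wild-type mice. Mup6 gave 56.6 to 130 in Car6-/- duodenum, detected on 1 array, and 485 to 650 in wild-type duodenum.

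The stomach effect minus the submandibular effect was 2.86 for Car6, -3.38 for Pgk1, -4.18 for Gcnt1, -2.02 for Ogfod1, -2.10 for Olfr979 and -2.19 for Brf1. Pgk1, Gcnt1, Ogfod1 and Olfr979 were undetected on all 3 wild-type gland arrays, and Brf1 was detected on 1. Ogfod1 signals were 96.7 to 134.5 in the Car6-/- gland and 67.16 to 75.01 in the wild-type gland, at least 1.37-fold higher. Olfr979 gave 81.1 to 94.2 in the Car6-/- gland and 51.6 to 62.1 in the wild-type gland, at least 1.14-fold higher, and was undetected on all 6 stomach arrays. Brf1 gave 130.1 to 205.6 in the Car6-/- gland and 75.4 to 89.0 in the wild-type gland. Olfr979 was not called without background correction, and Brf1 was not called with the replicate block. The stomach log2 differences were -0.55 for Gcnt1, -0.25 for Ogfod1 and -0.11 for Brf1. For Gcnt1 the normalized values of the genotypes were apart in both tissues, lower in Car6-/- stomach and higher in the Car6-/- gland. The adjusted p by limma for that difference between tissues was 0.000338.

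4 other genes, named for a small p or a large difference in the stomach, had genotypes apart in opposite directions in the stomach and another tissue. The test of that difference did not pass for any of these 4. Tmem189 was higher in Car6-/- stomach by 1.06 and lower in Car6-/- duodenum (-0.82), with a stomach minus duodenum difference of 1.75 (adjusted p 0.139). Gsn had 0.87 and -0.85, with a difference of 1.66 (adjusted p 0.178). Aqp5 had -1.15 in the stomach and 0.36 in the submandibular gland, with a difference of -1.45 (adjusted p 0.991). Rtn4 had 0.65 and -0.55 in these tissues, with a difference of 1.36 (adjusted p 0.929). The single-tissue values of Tmem189, Gsn, Aqp5 and Rtn4 come from the fit within each tissue. Those of Gcnt1, Ogfod1 and Brf1, like the differences between tissues, come from the fit of all 18 arrays.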

How the results depend on the processing

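With 0 genes called in the stomach under 21 of 22 alternatives, the exception was the fit of all 18 arrays, which called 1 (ILMN_2958159). Array weights called 0, with 1237 at an unadjusted p of 0.05 and a smallest adjusted p of 0.0841. The 22 genes followed across alternatives kept their direction in all 464 alternative values. Most of the 22 were chosen for their separation in the stomach, so this was largely fixed by the choice. Other genes named here, such as Acta1, Timmdc1 and Atp10d, were not among them. Leaving out 1 array gave 0 genes called in each case, 6130 to 7337 genes with an interval within 1 log2 unit, list medians of -0.031 to 0.12 (mucous; -0.031 without wild type 3), -0.74 to 0.81 (squamous), -0.04 to 2.06 (muscle) and -1.51 to -0.31 (acinar), and 1 to 3 (duodenum) and 6 to 8 (submandibular gland) called tissue differences. Without the filter on dim probes the interval count was 16495 and the no-overlap count 1673, since more genes were tested. The mucous median was -0.077 with array weights, -0.057 with the acinar covariate and -0.046 without both replicate 3 arrays, and the squamous median was 1.38 with array weights and 1.34 without both replicate 3 arrays. The submandibular list median (-2.20) was -0.30 without the filter, -0.33 in the fit of all 18 arrays and -1.07 with array weights. The cause was not tested. The share of genes at an unadjusted p of 0.05 that were higher was 41.5%, against 51.1% with every probe tested singly, 51.7% with the muscle covariate and 28.9% without Car6-/- 3.

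Deviations of same-numbered arrays correlated at -0.311, -0.258 and -0.296, so they did not deviate together. The highest correlations were 0.483 for Car6-/- 1 and wild type 3, both high in muscle RNA, and 0.469 for Car6-/- 3 and wild type 2, both low in squamous RNA. Tissue content enters these values, so they cannot tell whether same-numbered samples were paired. The replicate block gave 0 called (214 at an unadjusted p of 0.05) in the stomach and 135 called differences from the duodenum.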
